A study of Mus musculus with 4 samples.

Results

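The surface of the stomach is covered by pit cells, which secrete a gel of mucins and small stabilizing peptides that keeps acid and proteases away from the epithelium. Trefoil factors are cysteine-rich peptides released together with these mucins, and gastrokines are secreted proteins made almost exclusively by gastric surface and neck cells. The adult duodenum has little pit epithelium of its own, although its Brunner glands make a mucus related to that of the pyloric glands of the stomach. Expression of 10 genes of this gastric surface mucosa, namely Muc5ac, Muc6, Mucl3, Tff1, Tff2, Gkn1, Gkn2, Gkn3, Anxa10 and Ctse, was examined among 32575 genes or identifiers measured by the arrays. These members were selected on earlier results of the same duodenum and spinal cord arrays, so their differences are given as a description and were not tested. A probe was found for 9 of the 10 genes; Muc6 was not matched to a probe through the reference accessions and has no value here.

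Total RNA of 4 samples from male mice aged 20 weeks was hybridized to 1-colour arrays. The samples were the spinal cord and the duodenum of IP6K2-KO mice, in which exon 6 of the gene for inositol hexakisphosphate kinase 2 had been deleted, and of WT littermates. All of them had received a purified diet for 1 week and had then been fasted for 48 h. Each combination of genotype and tissue was measured on 1 array, so no difference has a replicate check and precision is limited by how few arrays there were. In the methods of the accompanying paper the duodenum was cut from where the stomach ends, but they do not name the array samples.

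Ip6k2, which encodes the kinase that was deleted, gave a signal of 452 in WT spinal cord and 1320.3 in spinal cord labelled IP6K2-KO. The duodenum arrays gave 139 for WT and 572 under the label IP6K2-KO. Signals were compared on a log2 scale on which the 75th percentile of every array was set to 0. On that scale Ip6k2 was 2.73-fold higher in spinal cord labelled IP6K2-KO than on the WT array, against its label, and 1.16-fold lower in the duodenum. Both folds of Ip6k2 are given under this scaling only. Where the probe lies relative to the deleted part of the gene is not given in the sources used here, so it does not settle the labels, and the arrays are called by their labels throughout.

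The 75th percentile of the signal was 905 in WT spinal cord and 971 in spinal cord labelled IP6K2-KO. It was 68.0 on the WT duodenum array and 323 on the duodenum array labelled IP6K2-KO, so the WT duodenum array was the dimmest. Of the probes, 51.6% were well above background on the WT duodenum array and 66.3% on the duodenum array labelled IP6K2-KO, against 76.7% and 77.3% on the spinal cord arrays. The tissues carried their defining markers. Of 12 enterocyte genes, all 12 were well above background on both duodenum arrays, with summed signals of 208580 in WT and 512870 on the array labelled IP6K2-KO, against 369.8 and 509 in the spinal cord. Of 11 matched spinal cord genes, all 11 were well above background on both spinal cord arrays, with summed signals of 414860 and 428990, against 1442 and 4904 in the duodenum.

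In the duodenum, the gastric surface genes were mostly brighter on the array labelled IP6K2-KO. Of the 9 members with a probe, 7 were at least 2-fold higher on that array than on the WT array and 0 were at least 2-fold lower. The same counts were taken over all 21428 genes or identifiers well above background on at least 1 duodenum array. Of these, 7.20% were at least 2-fold higher and 11.9% at least 2-fold lower. That balance turned to more genes higher in the deposited table and with spike-in scaling. The median difference over the 8 members with a value was 3.42 on the log2 scale, and the median over all genes was -0.05. The former was 1.41 with either form of normexp and 6.29 with spike-in scaling, which moved the median of all genes to 2.78. Because this contrast helped to choose the members, nothing is read from the difference between these medians. Fewer cells of a type and less RNA per cell cannot be told apart in RNA from whole tissue.

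Among the mucins, Muc5ac encodes the gel-forming mucin of gastric pit cells. Its signal was 7.85 in WT spinal cord, 10.9 in spinal cord labelled IP6K2-KO, 6.27 on the WT duodenum array and 291 on the duodenum array labelled IP6K2-KO. Only the last of these stood far from background, since the lowest signal called well above background was 4.29 on the WT duodenum array. The normalized signal of Muc5ac was 9.76-fold higher in the duodenum labelled IP6K2-KO than in WT, a difference of 3.29 with a technical SD of 0.26 on the log2 scale. This SD was taken from probes spotted 10 times on each array and covers spot-to-spot error only. With the normexp background correction the difference was 0.84 and no longer reached 2-fold.

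Mucl3, a mucin-like membrane protein first named Dpcr1, gave 1.48 and 1.97 on the WT and IP6K2-KO-labelled spinal cord arrays, neither well above background. In the duodenum its signal was 8.87 in WT and 1313 on the array labelled IP6K2-KO. The normalized signal was 31.2-fold higher on the latter, a difference of 4.96 with a technical SD of 0.20 on the log2 scale. With normexp it was 2.49, lower than that of Tff1 at 4.24.

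The trefoil factors did not move together. Tff1, the trefoil peptide of pit cells, had 2 probes. Its brighter probe gave 15.5 in WT spinal cord, 0.918 in spinal cord labelled IP6K2-KO, 379.6 on the WT duodenum array and 24914 on the duodenum array labelled IP6K2-KO. The other probe gave 11.1, 1.05, 326 and 24601 in the same order, so both probes were highest in the duodenum labelled IP6K2-KO and not well above background in the spinal cord labelled IP6K2-KO. In the duodenum the normalized signal of Tff1 was 13.8-fold higher on the array labelled IP6K2-KO, a difference of 3.79 with a technical SD of 0.07.

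Tff2, the trefoil peptide of mucous neck, pyloric and Brunner gland cells, gave 2.27 and 1.25 in the WT and IP6K2-KO-labelled spinal cord, neither well above background. It gave 77412 in the WT duodenum and 228260 in the duodenum labelled IP6K2-KO, and none of the spots was saturated. After scaling on the 75th percentile its normalized signal was 1.61-fold lower on the array labelled IP6K2-KO, a log2 difference of -0.69 that turned to 0.92 with quantile normalization of the 4 arrays and to 1.08 with quantile normalization within each tissue. The direction of Tff2 between the duodenum arrays therefore depended on the scaling. The difference of Tff1 exceeded that of Tff2 by 4.48 and that of Tff3, the trefoil peptide of intestinal goblet cells, by 4.77 on the log2 scale. Quantile normalization of the 4 arrays brought these gaps to 2.58 and 3.48. The difference of Tff2 exceeded that of Tff3 by 0.30, and by 0.90 with that normalization.

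**Figure D1:**
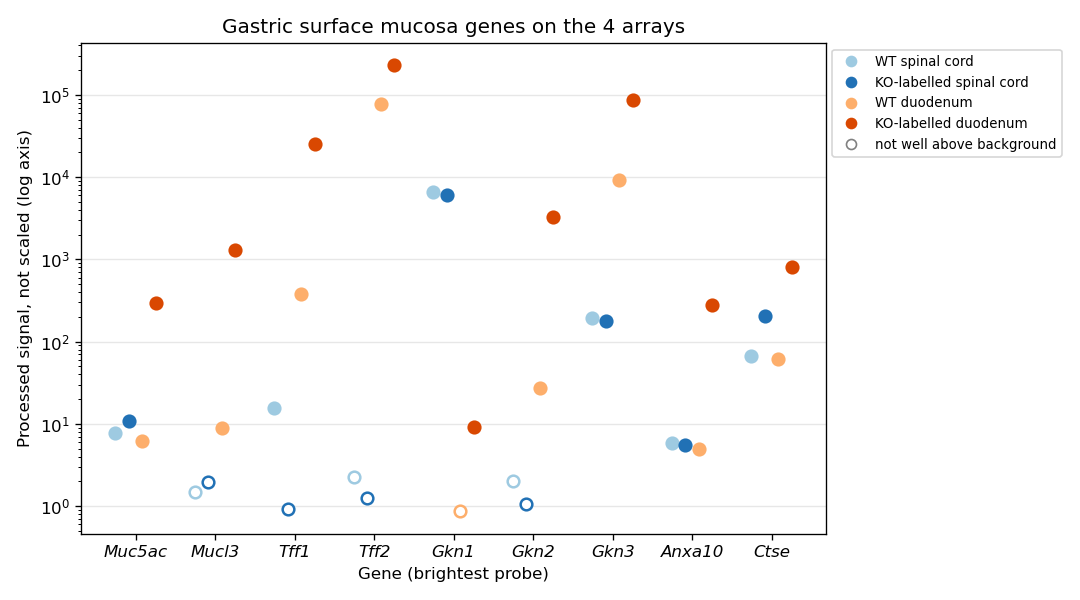
Processed signal on a log axis of the brightest probe of each of the 9 gastric surface genes with a probe, on the 4 arrays; each point is 1 array, and open points are not well above background. All genes except Gkn1 had their highest signal on the duodenum array labelled IP6K2-KO, and Gkn1 was bright on the spinal cord arrays, at 6674 and 5982.5.

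The 3 gastrokines, secreted proteins with a BRICHOS domain, differed from one another in their pattern. Gkn2, which is made in pit cells, was spotted 10 times on each array. Its signal was 2.01 in WT spinal cord and 1.05 in spinal cord labelled IP6K2-KO, neither well above background. In the duodenum it was 27.6 in WT, with an SD over the 10 spots of 0.10 on the log2 scale, and 3238 on the array labelled IP6K2-KO, with an SD of 0.04. The normalized signal was 24.7-fold higher on the latter, a log2 difference of 4.63. The spread between spots says nothing about variation between samples.

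Gkn3, a gastrokine of neck and gland mucous cells, gave 195 in WT spinal cord, 179.9 in spinal cord labelled IP6K2-KO, 9083.5 on the WT duodenum array and 86854 on the duodenum array labelled IP6K2-KO. It was bright in both duodenum samples. Its normalized signal was 2.01-fold higher on the array labelled IP6K2-KO, just past the 2-fold mark, and the log2 difference of 1.01 became 1.61 with quantile normalization of the 4 arrays. The difference of Gkn2 exceeded that of Gkn3 by 3.62 on the log2 scale, by 2.77 with quantile normalization of the 4 arrays and by 2.08 with the normexp background correction.

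Gkn1, the most abundant gastrokine of the normal pit epithelium, differed from the other members between the tissues. Its probe gave 6674 in WT spinal cord, 5982.5 in spinal cord labelled IP6K2-KO, 0.864 on the WT duodenum array and 9.15 on the duodenum array labelled IP6K2-KO. Of the duodenum arrays only that labelled IP6K2-KO had it well above background, and no fold is given because the bound was under 1. The series table of the authors' log2 values gave the same order, with 11.74, 11.47, 0.09 and 3.61. The brightness of this probe in the spinal cord went against a gastric surface pattern, and whether it detects Gkn1 transcripts was not tested, because no probe sequence was used here.

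Anxa10, a calcium-binding annexin found mainly in gastric epithelium, gave 5.89 and 5.61 on the WT and IP6K2-KO-labelled spinal cord arrays. It gave 4.96 in the WT duodenum and 277 in the duodenum labelled IP6K2-KO. The first 3 of these values were close to the limit of detection. The normalized signal was 11.8-fold higher in the duodenum labelled IP6K2-KO, a difference of 3.56 with a technical SD of 0.32 on the log2 scale, and it was 1.08 with normexp and 0.998 with normexp and replaced backgrounds.

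Ctse encodes cathepsin E, an intracellular aspartic protease of gastric surface cells that is also made by immune cells. Its signal was 67.5 in WT spinal cord, 205 in spinal cord labelled IP6K2-KO, 62.2 on the WT duodenum array and 799 on the duodenum array labelled IP6K2-KO. It was higher on the array labelled IP6K2-KO in both tissues, 2.83-fold in the spinal cord and 2.70-fold in the duodenum. The log2 difference in the duodenum was 1.43, and the technical SD was 0.09 in either tissue. The result in the spinal cord depended on the background correction, since the log2 difference there was -0.53 with normexp and 0.95 with normexp and replaced backgrounds.

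In the spinal cord, either or both arrays detected 6 members well above background. Among them, 1 was at least 2-fold higher on the array labelled IP6K2-KO, Ctse, against 2.28% of 25215 genes, and 1 was at least 2-fold lower, Tff1, against 0.865% of the same genes. Tff1 was not well above background on the array labelled IP6K2-KO, so its normalized signal was at least 3.88-fold lower there. The log2 difference of -1.96 was -1.49 with quantile normalization of the 4 arrays and -0.43, under 2-fold, with normexp and replaced backgrounds. The remaining 4 differed by less than 2-fold, with log2 differences of -0.26 for Gkn1, -0.22 for Gkn3, 0.38 for Muc5ac and -0.17 for Anxa10. That of Anxa10 was smaller than its technical SD of 0.35. With normexp these differences were 0.14, -0.94, -2.28 and -2.39, but that setting also placed 9603 of 25199 genes at least 2-fold lower and moved the median gene to -0.48. The median over the 6 members was -0.19 and that over all genes -0.04.

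Between the tissues, differences were taken relative to the median gene of the pair, because scaling shifts the tissues against each other. On the WT arrays, 8 of the 9 members were at least 2-fold higher in the duodenum, against 23.8% of 25218 genes, though 3 with normexp, and 1, Gkn1, was at least 2-fold lower, against 32.2%. On the arrays labelled IP6K2-KO, 8 of 9 were again at least 2-fold higher in the duodenum, against 25.7% of 25719 genes, and Gkn1 was at least 2-fold lower, against 30.4%. Muc5ac, Anxa10 and Ctse were higher in the duodenum by 6.87-fold, 7.25-fold and 7.94-fold on the WT arrays. Their unscaled signals in the WT duodenum lay slightly under those in the WT spinal cord, so in these 3 genes the direction came from the scaling of the dim duodenum array. On the arrays labelled IP6K2-KO they were higher in the duodenum by 65.0-fold, 121-fold and 9.53-fold, and there the unscaled signals were also higher in the duodenum.

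Other genes of the gastric surface were examined beside the members. Of 12 other pit genes, 11 were well above background on at least 1 duodenum array, and 4 of these were at least 2-fold higher on the array labelled IP6K2-KO and 0 at least 2-fold lower. Vsig1, a junction protein of gastric epithelium, was at least 3.93-fold higher, and Fut2, a fucosyltransferase of mucin glycans, at least 2.43-fold. Muc1, a membrane mucin, was 2.13-fold higher and Psca, a surface antigen, 2.06-fold, both just past the mark. Their WT duodenum signals were low, at 12.2 and 8.73. Cldn18, the claudin of gastric tight junctions, was not well above background on any array. The summed signal of the list was 1790.4 and 1829.6 on the WT and IP6K2-KO-labelled spinal cord arrays and 2329.5 and 15373 on the duodenum arrays, where its brightest gene was Onecut2 in WT and Tmem45b on the array labelled IP6K2-KO. The median log2 difference in the duodenum was 0.66, which is the lower bound of Capn8, a calpain not well above background in the WT duodenum.

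Of 8 other genes of mucous neck and pyloric gland cells, all 8 were well above background on both duodenum arrays. Egf, a growth factor made in Brunner glands, was 3.29-fold higher on the array labelled IP6K2-KO, and A4gnt, which caps gland mucin glycans, 2.56-fold. Their WT duodenum signals were low, at 8.66 and 6.26, where the lowest called well above background was 4.29. Lyz1, a lysozyme that Paneth cells also make, was 2.15-fold lower, a log2 difference of -1.10 that was -0.23 with quantile normalization of the 4 arrays, -0.29 with that within each tissue and -0.88 relative to the median gene with spike-in scaling. The summed signal was 1211.9 and 3137.5 in the spinal cord and 21615 and 67397 in the duodenum, in the order WT and IP6K2-KO-labelled, and Lyz1 was the brightest gene on all 4 arrays. The median difference was 0.66.

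Genes of acid- and pepsinogen-producing cells were examined in the duodenum as well. Of 10 parietal cell genes, 4 were well above background in the WT duodenum and 7 on the duodenum array labelled IP6K2-KO. Of the proton pump subunits, Atp4a gave 1.88 in the WT duodenum and 9.53 in that labelled IP6K2-KO. Only the latter value was well above background. Atp4b gave 0.999 and 1.38 in the same order, neither well above background. Kcnq1, a potassium channel that intestinal cells also make, gave 870.2 and 3416, and Car2, a carbonic anhydrase of many cells, 50.3 and 930.4. The summed signal of the list was 55531 and 61193 in the spinal cord and 2109.5 and 7257 in the duodenum. Its brightest gene was Ckb, a creatine kinase used by many cells, on 3 arrays and Kcnq1 on the duodenum array labelled IP6K2-KO. Of 7 chief cell genes, 3 were well above background in the WT duodenum and 7 on the array labelled IP6K2-KO. Lipf, the gastric lipase, gave 2.27 and 14.0, and Pga5, a pepsinogen, 3.48 and 14.6. Bhlha15, a transcription factor of secretory cells, gave 407 and 4062, and Pgc, a pepsinogen counted among the neck and pyloric genes, 164 and 622. The summed signal was 396 and 362 in the spinal cord and 135870 and 151320 in the duodenum, where most of it came from Clps, the colipase that pancreatic cells also make. In each list 1 gene was at least 2-fold higher and 1 at least 2-fold lower on the duodenum array labelled IP6K2-KO. These counts cover only the 4 parietal and 3 chief cell genes with a fold. The other genes detected, among them Atp4a, Lipf and Pga5, were well above background on only that duodenum array. Their bounds were under 1, so they could not be counted in either direction. With either quantile normalization 0 were lower.

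Gast, the gastrin of pyloric endocrine cells, gave 1.02 in the WT duodenum, where it was not well above background, and 27.5 on the array labelled IP6K2-KO, at least 1.35-fold higher. Of the 5 gastric endocrine genes, 0 were past 2-fold in either direction, and their summed signal was 8531 and 8624 in the spinal cord and 2957.5 and 10777 in the duodenum, with Sst the brightest on all 4 arrays. Of 11 genes of the forestomach squamous epithelium, 4 were well above background in the WT duodenum and 6 on the array labelled IP6K2-KO, and 0 were past 2-fold. The keratins Krt4 and Krt6a and the envelope proteins Ivl and Sprr3 were not well above background on any array. Other keratins of the list were detected in the duodenum. Krt13 gave 17.3 and 52.9 and Krt15 5.76 and 43.3 in the WT and IP6K2-KO-labelled duodenum, all well above background. Krt5 and Krt14 were well above background there only on the array labelled IP6K2-KO, at 9.40 and 15.8, and have no fold. The summed signal of the squamous list was 7688 and 7746 in the spinal cord and 704 and 2127 in the duodenum, with Trp63 the brightest. The part of stomach tissue in the differences of the members was not tested.

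Pancreatic tissue lies against the duodenum. All 13 acinar genes were well above background on both duodenum arrays, with summed signals of 1354700 in WT and 2023600 on the array labelled IP6K2-KO, against 883.0 and 952 in the spinal cord. Cela3b, an elastase, was the brightest in both duodenum samples. Of the 13, 9 were at least 2-fold lower on the array labelled IP6K2-KO and 0 at least 2-fold higher, with a median log2 difference of -1.74, but with quantile normalization of the 4 arrays the median was 0.07, with that within each tissue 0.08, and 0 were at least 2-fold lower with either. The direction of this list thus depended on the scaling, as that of Tff2 did, and its part in the differences of the members was not tested.

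The mucosa of the intestine itself showed other patterns. Of 8 goblet cell genes, 3 were at least 2-fold lower on the array labelled IP6K2-KO and 0 at least 2-fold higher. Their median was -0.73, and it became 0.12 with quantile normalization of the 4 arrays and 0.15 with that within each tissue. With either of these 2 were lower and 1 was higher. Retnlb, a goblet cell antimicrobial protein, gave 117 in WT and 5.86 on the array labelled IP6K2-KO, a log2 difference of -6.57. Of 6 matched Paneth cell genes, 4 were at least 2-fold lower and 0 higher, with a median of -1.52. With quantile normalization of the 4 arrays 2 were lower, with a median of -0.60. With that within each tissue 3 were lower, with a median of -0.70. Of 12 enterocyte genes, 1 was at least 2-fold higher and 3 at least 2-fold lower, but 0 were lower with quantile normalization of the 4 arrays, where the median turned from -0.07 to 0.39. Of 7 smooth muscle genes 0 were at least 2-fold higher and 2 lower. Muc2, the intestinal gel-forming mucin next to Muc5ac in the genome, differed by -0.30, and the difference of Muc5ac exceeded it by 3.59 on the log2 scale, but by 0.55 with normexp.

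**Figure D2:**
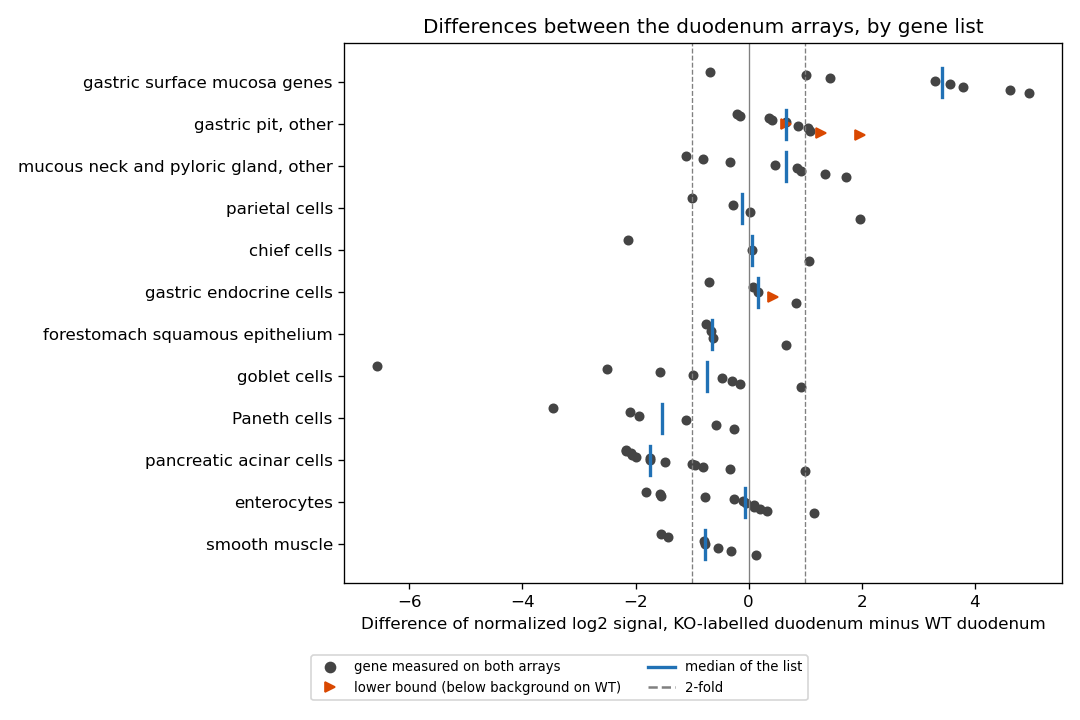
Difference of the normalized log2 signal between the duodenum array labelled IP6K2-KO and the WT duodenum array for the genes of 12 lists; each point is 1 gene, triangles are lower bounds, blue bars are medians of lists and dashed lines mark 2-fold. The median of the gastric surface genes was 3.42 (1.41 with normexp), that of the other pit genes, a lower bound, 0.66 and that of the pancreatic acinar genes -1.74, the last turning to 0.07 and 0.08 with the quantile normalizations.

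Transcription factors of the stomach and pylorus did not differ in 1 direction. Of 14, 12 were well above background on at least 1 duodenum array, 1 was at least 2-fold higher on the array labelled IP6K2-KO, Meis1, and 2 were at least 2-fold lower, Foxq1 and Sox21, against a count of 1 with quantile normalization of the 4 arrays. Sox2 and Barx1, which specify stomach epithelium and its mesenchyme, were not well above background on either duodenum array. Of 7 intestinal transcription factors, 0 were past 2-fold, and Cdx2, which specifies intestinal epithelium, gave 962 in the WT duodenum and 4655.5 on the array labelled IP6K2-KO, a normalized difference of 0.03.

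Outside the members, the 8 genes with the pattern most like their median were found among 15024 genes with a symbol that were well above background on at least 1 duodenum array. Likeness was the Euclidean distance over the 4 arrays between log2 values centred on the mean of each gene, with values raised to the lowest one well above background on the array. The nearest was Ppy, which encodes pancreatic polypeptide, at a distance of 1.39, followed by Cckar, a cholecystokinin receptor, at 1.40 and Cyp4a32, a fatty acid hydroxylase, at 1.51. The signal of Ppy was 1.07 and 1.08 on the WT and IP6K2-KO-labelled spinal cord arrays and 8.44 and 276 on the duodenum arrays. Others among the 8 were Ces1g, Amy2a4, Cyp4a31 and Fmo4, at distances up to 2.04.

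Several members lie next to each other in the RefSeq gene order of GRCm38.p6. Gkn1, Gkn2 and Gkn3 are neighbours, and so are Tff3, Tff2 and Tff1. The gene beyond Gkn3, Bmp10, gave low signals of 12.9 in the WT duodenum and 22.1 in that labelled IP6K2-KO. Its normalized signal was 2.77-fold lower on the latter array, and that of the gene beyond Tff1, Tmprss3, 1.52-fold lower. Beside Muc5ac, Muc2 was 1.23-fold lower and Muc5b, a gel-forming mucin of airways and glands, 1.79-fold lower. None of the neighbours with a value that were not members reached 2-fold higher. The gene before Gkn1, Antxr1, differed by 0.16 on the log2 scale and the gene after Mucl3, Sfta2, by -0.71.

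RefSeq promoter sequences were matched for 6 members, and the 250 bases before the start of the gene are shown for the gastrokines, whose patterns differed, and for Anxa10. On both strands 4 motifs were searched, the TATA box TATAAA, the GATA motif AGATAA, the FOXA motif TGTTTAC and the GC box GGGCGG. They were held by 12.4%, 9.99%, 3.17% and 32.7% of 32851 windows of the same length. Capitals mark the matches, which did not overlap. The sequences are of build GRCm38.p6, with Gkn1 at chr6:87350916-87351165 on the minus strand, Gkn2 at chr6:87373115-87373364 on the plus strand, Gkn3 at chr6:87388936-87389185 on the minus strand and Anxa10 at chr8:62123194-62123443 on the minus strand.
Gkn1: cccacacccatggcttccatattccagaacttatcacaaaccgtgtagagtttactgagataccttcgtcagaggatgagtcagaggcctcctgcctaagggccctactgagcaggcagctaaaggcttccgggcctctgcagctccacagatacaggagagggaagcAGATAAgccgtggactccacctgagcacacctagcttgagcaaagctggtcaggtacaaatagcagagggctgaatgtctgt
Gkn2: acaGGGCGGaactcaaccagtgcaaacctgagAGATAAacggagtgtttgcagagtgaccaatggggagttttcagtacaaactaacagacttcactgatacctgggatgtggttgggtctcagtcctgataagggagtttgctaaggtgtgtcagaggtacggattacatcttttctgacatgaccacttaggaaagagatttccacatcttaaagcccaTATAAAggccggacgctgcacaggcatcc
Gkn3: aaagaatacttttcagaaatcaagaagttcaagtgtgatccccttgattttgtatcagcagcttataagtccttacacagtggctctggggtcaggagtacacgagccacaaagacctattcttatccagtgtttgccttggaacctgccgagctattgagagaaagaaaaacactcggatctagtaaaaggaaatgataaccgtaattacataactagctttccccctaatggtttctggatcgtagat
Anxa10: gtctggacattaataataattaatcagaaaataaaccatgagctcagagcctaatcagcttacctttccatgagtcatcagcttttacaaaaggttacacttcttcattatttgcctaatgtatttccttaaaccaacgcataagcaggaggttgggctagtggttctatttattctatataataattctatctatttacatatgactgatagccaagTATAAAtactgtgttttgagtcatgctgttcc
A TATA box lay from 29 to 24 bases before the start of Gkn2 and from 32 to 27 bases before that of Anxa10, and Gkn1 and Gkn2 each held a GATA motif. The window of Gkn3 held none of the 4 motifs. Of the matched members not shown, Mucl3 also held none and Muc6 held a GATA motif. A match describes the letters of the window and is no evidence of binding.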

How the data were processed

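Cy3-labelled RNA of 4 samples was read on 1 array each by the authors with Agilent Feature Extraction 11.5.1.1, and the deposited spot intensity was background-subtracted and detrended within each array but not normalized between arrays, per the file headers. After removal of control spots and of outlier spots, the remaining spots of each probe were averaged as log2 intensity, and arrays were scaled by subtracting their 75th percentile. Of 39429 probes, 26581 were named through RefSeq accessions of GRCm38.p6, and where a gene had several probes the brightest on average was used. Probes without a gene name were kept under their own identifiers, and counts and medians over all genes include these. Where 1 array of a pair was not well above background, the fold is a bound, for which the dim value was raised to the array floor, the lowest normalized value called well above background, unless it lay higher already. The technical SD of a value was the median SD over the 50 probes nearest in brightness among 399 probes spotted 10 times. It was divided by the square root of the number of spots of the gene's probe. For a difference, the SDs of both arrays were combined as the square root of their summed squares. No difference was tested, as there was 1 array per group, and a difference was counted from 2-fold. The steps were tested on simulated data with Python 3.11.15, numpy 2.4.6 and pandas 2.3.3. Alternatives were median and quantile scaling, scaling on 8 spiked-in probes, normexp with an offset of 50 (limma 3.58.1 in R 4.3.3), other filters and folds, and the deposited series table. Its log2 values, by the authors, had a median absolute difference of at most 0.0024 from a quantile normalization of the 4 arrays in which log2 signals under 0 were first set to 0, a step the quantile alternative lacked, and each column had a median of 5.11 or 5.12. Named genes were all members, Ip6k2, the brightest genes of each list and those past 2-fold, the 8 genes most like the members, and neighbours of members; other genes named for their role were chosen after their values were seen. Members and lists were chosen with earlier results of these data known.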

Additional observations from a re-analysis of the deposited data

Results flagged for a closer look

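The differences of Gkn3 and Tff1 between the array labelled IP6K2-KO and the WT array had opposite signs in the tissues, and each exceeded the spot-to-spot error of its probe, which is why they are given here. That error leaves out variation between samples. On the log2 scale Gkn3 differed by 1.01 in duodenum but -0.22 in spinal cord, the latter less than 2-fold. Tff1 differed by 3.79 in duodenum but -1.96 in spinal cord, the latter a bound, because Tff1 was not well above background in spinal cord labelled IP6K2-KO. That bound was -1.49 with quantile normalization of the 4 arrays, and with normexp and replaced backgrounds the difference was -0.43, less than 2-fold. With 1 array per group the difference between the tissues was not tested for either gene.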

How the results depend on the processing

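No paired analysis was possible because there was 1 array for every genotype and tissue. Of 82 values recomputed for the counts and the median, 65 stayed close to the main value and 17 did not; most of them are counts, which have no direction. In the duodenum the count of members at least 2-fold higher, 7, lay between 5 and 9 under the 12 alternatives; the 9 came from spike-in scaling, which placed 20605 of 21428 genes at least 2-fold higher, and was 7 relative to the median gene, and the count lower was 1 with a 1.5-fold mark. In the spinal cord the count lower was 3 with normexp, where 9603 of 25199 genes were also at least 2-fold lower, 0 with normexp and replaced backgrounds, 0 with genes well above background on both arrays, 2 without a filter and 0 with a 4-fold mark, and the count higher was 0 with either normexp and with a 4-fold mark. The median difference in the duodenum, 3.42, was 3.31 with quantile normalization of the 4 arrays, 6.29 with spike-in scaling, 1.41 with normexp, 1.41 with normexp and replaced backgrounds and 3.29 without a filter. Spike-in scaling moved the median of all duodenum genes to 2.78, and relative to it the members' median was 3.51. The members higher in the duodenum than in the spinal cord were 3 with normexp and 5 with genes well above background on both arrays on the WT arrays, and 4 with the latter on the arrays labelled IP6K2-KO. Differences of single members turned in 8 of 139 recomputed values. Tff2 in the duodenum was 0.92 and 1.08 with the quantile scalings, 2.32 with spike-in scaling and 0.94 in the deposited table. The spike-in value holds the shift of all genes, and relative to the median gene it was -0.47, in the direction of the main setting. In the spinal cord Gkn1 was 0.14, Muc5ac -2.28 and Ctse -0.53 with normexp, and Muc5ac -0.042 with replaced backgrounds. Of the duodenum calls over all genes, 37.7% were higher in the main setting, 99.9% with spike-in scaling, 63.5% in the deposited table, 44.7% with quantile normalization of the 4 arrays, 21.8% with normexp, 21.7% with replaced backgrounds and 16.4% without a filter. Of the spinal cord calls 72.5% were higher in the main setting, 55.6% with spike-in scaling, 0.918% with normexp, 90.3% with replaced backgrounds and 55.8% without a filter. The cause was not tested. Normexp brought Muc5ac in the duodenum to 0.84, Anxa10 to 1.08 and Mucl3 to 2.49. Low signal over background in the WT duodenum left Gkn1 without a fold and limits Muc5ac, Mucl3 and Anxa10.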

Other observations

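Families of the members were examined by the same measure. Of 11 other annexins, 3 were at least 2-fold higher on the duodenum array labelled IP6K2-KO and 0 lower, among them Anxa8, at least 4.02-fold, and Anxa13, an annexin of intestinal epithelium, 2.74-fold. Of 8 aspartic proteases, 1 was at least 2-fold higher, Bace2 at 2.55-fold, and Ctsd, the lysosomal cathepsin D, was 1.54-fold lower. Of 7 BRICHOS proteins outside the gastrokines, 4 were well above background on at least 1 duodenum array and 0 were past 2-fold. Of 7 matched mucins outside the members, 6 were well above background on at least 1 duodenum array. Muc13, a membrane mucin of the intestine, was 2.96-fold higher. Muc1 was 2.13-fold higher, from a low WT signal of 12.2, and Muc20 was 3.02-fold lower. Of 16 genes of mucin O-glycosylation, 2 were at least 2-fold higher, Fut2 and A4gnt. In the WT duodenum Fut2 was not well above background and A4gnt was low, at 6.26. Another 2 were at least 2-fold lower, Galnt7 at 3.06-fold and St6galnac1 at 3.50-fold.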
